A study of Arabidopsis thaliana with 8 samples.

Results

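STZ (AT1G27730, probe set 261648_at) and GSTU25 (AT1G17180, probe set 262517_at) are Arabidopsis genes that respond to oxidative stress. They were found by symbol in the platform's gene table, each was matched by 1 probe set that lists no other gene, and these 2 probe sets are described here among 22746 on the array other than array controls. Both passed the filter on dim signals, which asked for log2 intensities of 4 or more on 2 or more of the 8 arrays, as did 14535 probe sets in all. The 4 groups were seedlings under heat (90 minutes at 38 °C), under anoxia (6 hours in an oxygen-free chamber at 23 °C), under the same heat followed by the same anoxia, and untreated controls at 23 °C. All were *Arabidopsis thaliana* (ecotype Columbia 0, no mutation named in the labels), sampled as whole seedlings grown for 4 days in darkness in liquid medium with 30 mM sucrose, and all treatments were given in the dark. Each group had 2 biological replicates with 1 Affymetrix ATH1 array each, so precision is limited by how few arrays there were.

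STZ, also called ZAT10, encodes a C2H2 zinc finger protein that represses transcription through a short repression motif, and its transcript is known to respond quickly to salt, cold, wounding, strong light and reactive oxygen. GSTU25 encodes a glutathione transferase of the tau class, a plant enzyme family that joins the thiol tripeptide glutathione to reactive or foreign molecules and so helps to detoxify them. Glutathione also feeds the cycle of ascorbate peroxidases and reductases that removes hydrogen peroxide. Lack of oxygen stops mitochondrial respiration, and heat unfolds proteins, and both are known to change the production of reactive oxygen in plants.

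The arrays gave median intensities of 36.8 to 53.4, and replicates correlated at 0.965 to 0.979 across probe sets. In each of the 4 groups replicate 2 had the higher signal of 25S ribosomal RNA and the larger excess of 3′ over 5′ signal for GAPDH and actin, control probe sets that report on RNA quality. Anoxia replicate 2 and heat then anoxia replicate 2 stood apart with 25S signals of 12.19 and 11.46 on the log2 scale, against 2.79 to 6.58 on the other arrays. Of the 9 markers listed for a dark-grown seedling, 3 were named on the array and passed the filter. PORB, an enzyme of chlorophyll synthesis in etiolated shoots, stood at 11.85 to 13.95 on all arrays, and the root hair expansins EXPA7 and EXPA18 were above log2 4 only in the controls. In RNA from whole seedlings, fewer cells of a type and less RNA per cell cannot be told apart.

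STZ was high in every treated group and varied widely between the untreated seedlings. Its log2 intensity was 10.31 and 10.16 in heat, 9.86 and 10.14 in anoxia, and 11.23 and 11.43 in heat then anoxia, against 2.94 and 7.29 in the controls. All 6 treated arrays lay above both control arrays, an order whose share over all probe sets was counted only for each treatment apart, as given below. The treated arrays spanned 1.57 on the log2 scale, less than the gap between the 2 controls. Control replicate 1 lay below the filter level of log2 4, near the array's background, whereas control replicate 2 had a clear signal.

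GSTU25 was high in both groups without oxygen and low in heat alone. Its log2 intensity was 5.34 and 4.45 in heat, 7.59 and 7.65 in anoxia, and 7.69 and 8.20 in heat then anoxia, against 4.34 and 6.60 in the controls. The 4 arrays of seedlings without oxygen lay above the other 4, and the heat arrays lay within the range of the controls. How many of all probe sets show this order was not counted, and shares for pairs of groups are given below. Every value was above the filter level of log2 4, which is not a test of detection. Control replicate 1 (4.34) and heat replicate 2 (4.45) lay close to that level, so differences from them are uncertain in size.

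**Figure D1:**
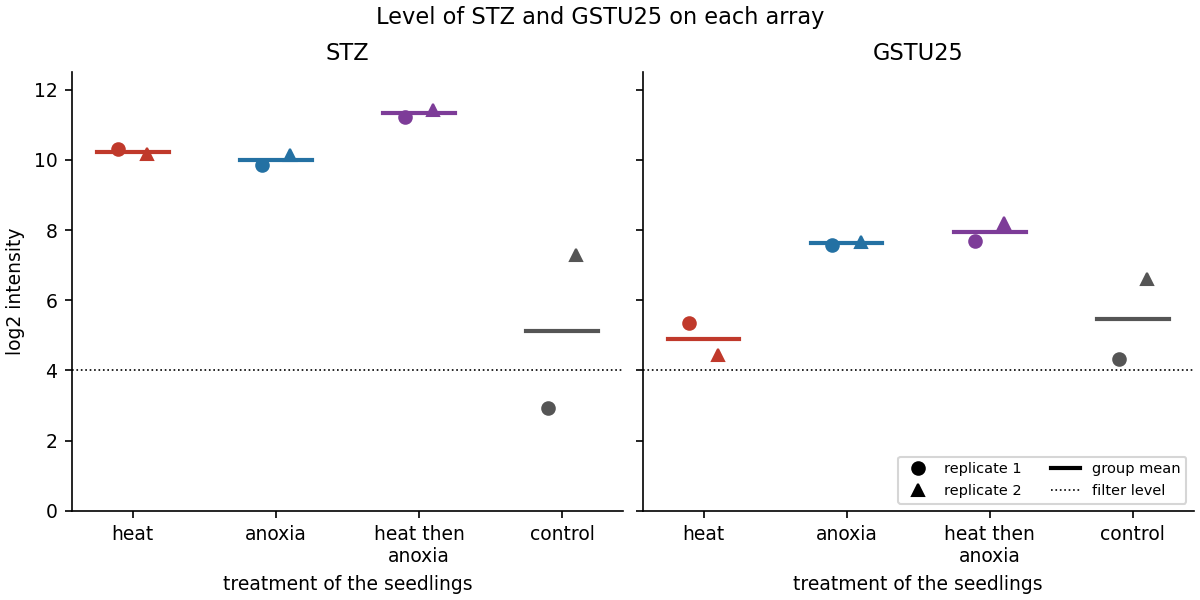
Log2 intensity (vertical axis) of STZ and GSTU25 on each of the 8 arrays by treatment, with circles for replicate 1, triangles for replicate 2, bars for group means and a dotted line at the filter level of log2 4. STZ lies at 9.86 to 11.43 on all treated arrays and at 2.94 and 7.29 in the controls, while GSTU25 lies at 7.59 or above only on the arrays of seedlings kept without oxygen.

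Heated seedlings were set against controls to see the effect of heat alone. STZ rose by 5.12 ± 1.12 on the log2 scale (SE; limma adjusted p = 0.00985), with group means of 10.23 ± 0.11 in heat and 5.12 ± 3.07 in controls (SD, n = 2 each). The SE rests on an SD pooled over the 4 groups, 1.54 for STZ and 0.88 for GSTU25, below the SD of the controls of each gene. The SE and p of comparisons with control thus understate the spread of the controls. In a fit of heat and control alone the limma adjusted p for STZ was 0.033. Against control replicate 2 alone the rise was 2.95, and against control replicate 1 alone it was 7.29. The rise kept its sign whichever array was left out, and the call held only narrowly without heat replicate 1 or 2. Leaving out a control array takes the spread of the controls out of the fit. Those fits therefore cannot show whether the call withstands that spread. GSTU25 was not called at -0.58 ± 0.66 (adjusted p = 0.547; 95% interval -2.11 to 0.95), with means of 4.90 ± 0.63 in heat and 5.47 ± 1.60 in controls. The sign of that value rests on which control is used, since it was -1.71 and called (adjusted p = 0.0305) without control replicate 1, and 0.55 (adjusted p = 0.421) without control replicate 2. A call required a change of 2-fold or more and an adjusted p (Benjamini-Hochberg) under 0.05, which 10.5% of all probe sets met as higher in heat and 17.9% as lower. All heat arrays exceeded both control arrays in 25.4% of probe sets, as they did for STZ. Median centring of the arrays moved the share of rises among calls from 36.9% to 54.7%, and moved the median of all probe sets by 0.34, while STZ stood at 5.46 and GSTU25 at -0.23.

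The effect of oxygen deprivation alone was read from anoxia against control. STZ rose by 4.89 ± 1.12 (SE; limma adjusted p = 0.0306) to 10.00 ± 0.20 in anoxia, against 5.12 ± 3.07 in controls (SD, n = 2 each), where 3.95% of probe sets were called higher and 5.92% lower. The rise was 2.72 against control replicate 2 alone and 7.06 against control replicate 1 alone. The call was lost without any 1 of the 6 treated arrays, at adjusted p of 0.0503 to 0.131, without the pair of arrays with a high 25S signal (4.75, adjusted p = 0.180), with no filter (adjusted p = 0.107) and in a fit of those 2 groups alone (adjusted p = 0.0914). GSTU25 stood at 2.15 ± 0.66 with 7.62 ± 0.04 in anoxia, against 5.47 ± 1.60 in controls, and was not called (adjusted p = 0.0858; 95% interval 0.62 to 3.68). For both genes the anoxia arrays lay above both controls, as in 24.4% of all probe sets. Without control replicate 1 GSTU25 stood at 1.02, and without control replicate 2 at 3.28, in fits that hold no spread of the controls. GSTU25 was called at 2.29 with median centring (adjusted p = 0.0499), which moved the median of all probe sets by 0.14 and the share of rises among calls from 40.0% to 51.1%.

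Both genes rose in the combined treatment, heat then anoxia against control. STZ was higher by 6.21 ± 1.12 (SE; limma adjusted p = 0.00292), with means of 11.33 ± 0.14 in heat then anoxia and 5.12 ± 3.07 in controls (SD, n = 2 each). It kept its call without any single treated array. The rise was 4.04 against control replicate 2 alone and 8.38 against control replicate 1 alone, in fits that hold no spread of the controls. GSTU25 was higher by 2.47 ± 0.66 (adjusted p = 0.0166), with means of 7.94 ± 0.36 in heat then anoxia and 5.47 ± 1.60 in controls. Its call was lost at 1.34 without control replicate 1 (adjusted p = 0.0508) and at 2.21 without heat then anoxia replicate 2 (adjusted p = 0.0822), and the rise was 3.60 without control replicate 2. It was also lost without the pair of arrays with a high 25S signal (adjusted p = 0.110), where STZ kept its call at 6.11 (adjusted p = 0.0309), and with no filter (adjusted p = 0.0569). Here 15.2% of all probe sets were called higher and 25.4% lower, and in 29.0% the treated arrays lay above both controls, as they did for both genes. The share of rises among calls was 37.4%, or 57.0% with median centring, which moved the median of all by 0.39 and put STZ at 6.61 and GSTU25 at 2.86.

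Comparisons were also made among the treated groups, where the controls enter only through the shared estimate of the spread. For GSTU25, heat alone and anoxia alone differed by -2.72 ± 0.66 (SE, heat minus anoxia; limma adjusted p = 0.0204), with means of 4.90 in heat and 7.62 in anoxia. The background was 12.0% of probe sets called lower in heat than in anoxia and 9.46% called higher, and in 40.1% the heat arrays all lay lower, as for GSTU25. Heat then anoxia exceeded heat by 3.05 ± 0.66 (adjusted p = 0.0288), where 5.13% of probe sets were called higher and 4.66% lower. The first call was lost without heat replicate 2 (-2.28, adjusted p = 0.117) or without anoxia replicate 1 or 2 (adjusted p = 0.0707 and 0.0848). The second was lost without any 1 array of heat or of heat then anoxia, at log2 fold changes of 2.60 to 3.49 and adjusted p of 0.0753 to 0.152. Without the arrays with a high 25S signal the differences were -2.69 (adjusted p = 0.112) and 2.79 (adjusted p = 0.178), and with no filter both calls were lost too (adjusted p = 0.070 and 0.0889). Between heat then anoxia and anoxia, GSTU25 differed by 0.32 ± 0.66 (adjusted p = 0.722; 95% interval -1.21 to 1.85). In order of mean level, GSTU25 ran from heat then anoxia through anoxia and control to heat, and no neighbours in that order were called apart.

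STZ was highest in heat then anoxia, whose arrays lay above those of both single treatments. It exceeded anoxia by 1.33 ± 1.12 (SE; limma adjusted p = 0.375; 95% interval -1.27 to 3.92) and heat by 1.09 ± 1.12 (adjusted p = 0.580; 95% interval -1.50 to 3.69), neither of them called. Most of the spread in this fit came from the controls: the within-group SD of STZ was 1.54 over all groups and 0.16 over the treated ones, against a median of 0.30 over all probe sets. Both differences were called in a fit of the 2 compared groups alone (adjusted p = 0.0186 against anoxia and 0.0415 against heat) or without either control array (0.00744 and 0.00741 against anoxia, 0.0404 and 0.0403 against heat). For comparison, 12.8% of probe sets were called higher and 17.2% lower in heat then anoxia than in anoxia. Arrays of heat then anoxia that all exceed those of anoxia were seen in 25.5% of probe sets, and in 27.8% for heat. Heat and anoxia differed by 0.23 ± 1.12 (adjusted p = 0.905; 95% interval -2.36 to 2.83), with the heat arrays all higher, as in 22.8% of probe sets. In order of mean level STZ ran from heat then anoxia through heat and anoxia to control, and of the neighbours only anoxia and control were called apart. Median centring moved the median of all probe sets by 0.26 between heat then anoxia and anoxia and by 0.20 between heat and anoxia. It moved the share of rises among calls from 42.7% to 59.9% in the first of these and from 44.2% to 55.8% in the second.

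The interaction asked whether heat then anoxia minus anoxia differed from heat minus control, and was taken as the first minus the second. The heat came before the anoxia, and no group was heated and then kept 6 hours in air. Lack of oxygen and time since heat therefore cannot be told apart in it. For STZ the interaction was -3.79 ± 1.59 (SE; limma adjusted p = 0.197, unadjusted p = 0.0444) and was not called. Without control replicate 2, whose value was 7.29, it was -5.96, and without control replicate 1 it was -1.62. The first rests on 1 control array at 2.94, below the filter level, and neither fit holds the spread of the controls. With all arrays the interaction was -3.27 with values raised to a floor of log2 4 and -2.94 with log2(intensity + 16), and neither was called. For GSTU25 it was 0.90 ± 0.93 (adjusted p = 0.616), with values of 2.03 without control replicate 1 and -0.23 without control replicate 2. Over all probe sets 3.73% were called with a positive and 2.45% with a negative interaction.

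**Figure D2:**
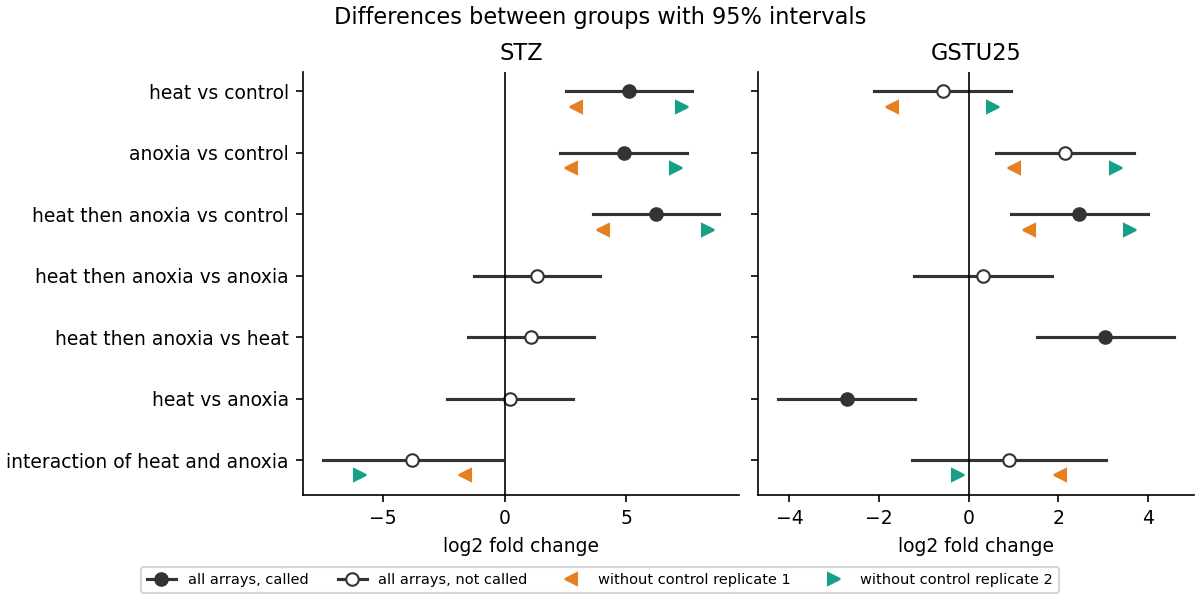
Log2 fold change (horizontal axis) of STZ and GSTU25 in the 7 comparisons, with circles for the fit of all arrays (filled where called), lines for 95% intervals, and arrowheads for the values without control replicate 1 or 2 where the controls enter. Each STZ rise over control lies between its values without either control, 2.95 and 7.29 for heat, and GSTU25 in heat lies on both sides of 0.

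The controls were the widest pair of replicates for both genes. STZ was 4.34 higher in control replicate 2 than in replicate 1, a gap that 13 of 14535 probe sets (0.0894%) matched or exceeded in either direction. Between treated replicates STZ differed by 0.28 or less. GSTU25 was 2.26 higher in control replicate 2, a gap matched or exceeded by 99 probe sets (0.681%), and it differed by -0.89 between the heat arrays, 0.06 between the anoxia arrays and 0.51 between the arrays of heat then anoxia. Over all probe sets the median gap between controls was -0.04 with an SD of 0.60, and 4.09% were more than 2-fold higher in replicate 2 and 2.48% in replicate 1. Control replicate 2 had a 25S signal of 6.20 and GAPDH and actin excesses of 3′ over 5′ signal of 1.1 and 4.95, against 2.79, 0.67 and 4.64 in control replicate 1. The part of these measures in the gap was not tested. Of 26 genes in the gene lists below that passed the filter, control replicate 2 exceeded replicate 1 over 2-fold for 6, and the reverse held for 3. STZ and GSTU25 are themselves among the 26 and among the 6. The transcription factor WRKY53, which failed the filter, stood at 3.17 and 6.97 in the controls and at 2.68 to 3.70 on the treated arrays.

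**Figure D3:**
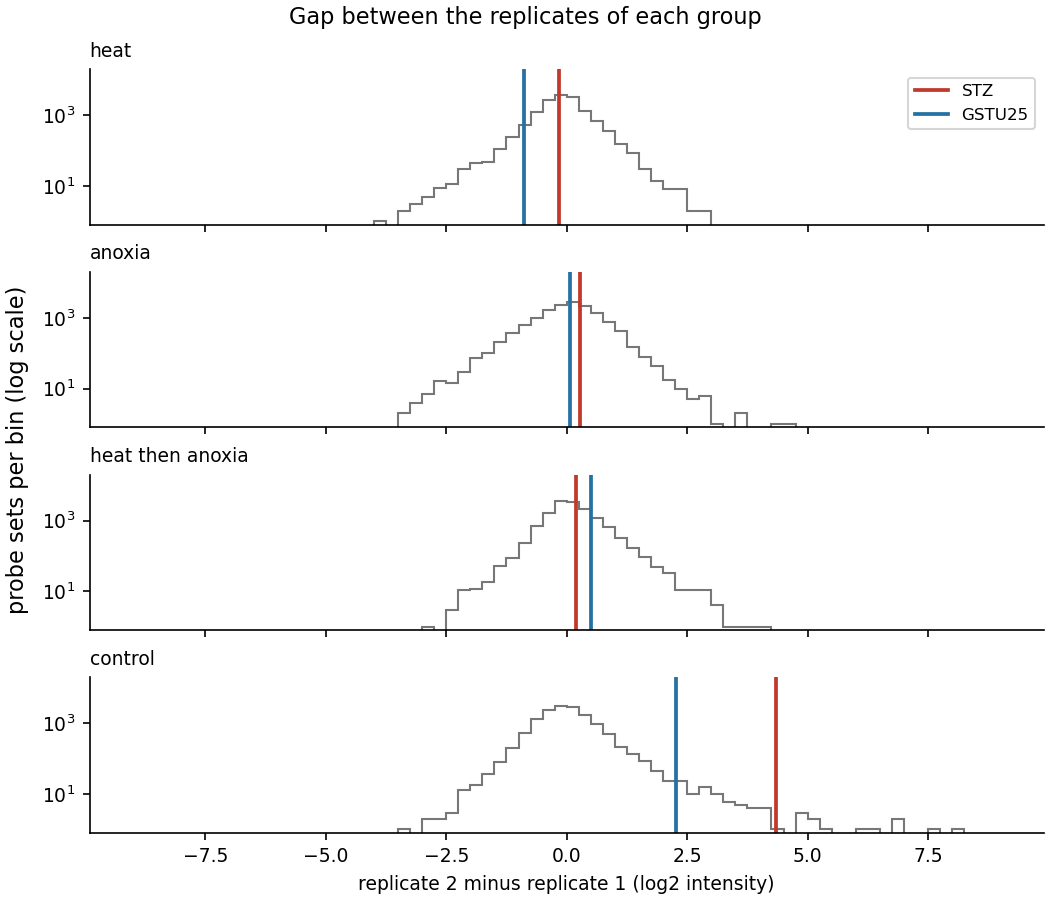
Number of probe sets (vertical axis, log scale) by the log2 intensity of replicate 2 minus replicate 1 (horizontal axis) in each group, with vertical lines for STZ and GSTU25. In the controls STZ lies at 4.34 and GSTU25 at 2.26, far out in the distribution, while both lie within 0.89 of 0 in the treated groups.

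The family of STZ was represented by few named probe sets. Of 11 listed C2H2 zinc finger genes 3 were named, and besides STZ only AT2G28200 passed the filter, with AT3G53600 at 2.14 to 2.38 on all arrays. AT2G28200 stood at 4.58 and 5.49 in heat, 7.54 and 7.38 in anoxia, and 4.51 and 4.50 in heat then anoxia, against 7.72 and 6.60 in controls. It fell in heat (-2.13 ± 0.42, SE; limma adjusted p = 0.00611) and in heat then anoxia (-2.65, adjusted p = 0.00157), but stood at 0.30 in anoxia (adjusted p = 0.728). The 2 zinc finger genes thus had opposite calls in both heated groups. Over all probe sets 10.5% were called higher and 17.9% lower in heat, and 15.2% higher and 25.4% lower in heat then anoxia. With 2 of 11 listed genes measured, this says little about the family.

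Tau class glutathione transferases differed in direction among themselves. Of 28 listed genes 11 were named and 8 passed the filter, while GSTU15, GSTU21 and GSTU23 stood below log2 3 on every array. In heat 2 of the 8 rose, in anoxia none was called by limma (GSTU25 and GSTU28 had an unadjusted p below 0.05), and in heat then anoxia GSTU25 rose and GSTU20 fell. The shares over all probe sets were 10.5% called higher in heat, 3.95% in anoxia and 15.2% in heat then anoxia, with 25.4% lower in the last. Without the arrays with a high 25S signal 1 rose in heat, and GSTU25 and GSTU20 lost their calls in heat then anoxia. Their median log2 fold changes were -0.18, -0.02 and 0.23, against -0.22, -0.01 and -0.33 over all probe sets. The genes that rose in heat were GSTU18 at 1.58 (limma adjusted p = 0.0353) and GSTU16 at 1.02 (adjusted p = 0.0379). GSTU16 was lost without any 1 of the control or heat arrays (adjusted p of 0.107 to 0.150). GSTU18 was lost without control replicate 2 (0.88), without heat replicate 1 (1.15) and without any 1 array of anoxia or heat then anoxia (adjusted p of 0.050 to 0.0529). In heat then anoxia GSTU18 stood at 1.15, and at 1.85 and called without control replicate 1. GSTU20 stood at 10.14 and 9.88 in heat then anoxia, against 10.97 and 11.21 in controls. Its fall of -1.08 (adjusted p = 0.0127) was lost at -0.96 when control replicate 2 was left out and at -0.95 when heat then anoxia replicate 2 was.

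GSTU26 is the gene next to GSTU25 on chromosome 1 in the RefSeq gene order (TAIR10.1), and GSTU24, its neighbour on the other side, was not analysed here. GSTU26 was at 8.72 and 9.64 in heat, 9.59 and 10.44 in anoxia, and 9.83 and 10.27 in heat then anoxia, against 9.28 and 9.33 in controls. It was not called in any of the 7 comparisons, with 0.72 in anoxia (limma adjusted p = 0.322) and 0.75 in heat then anoxia (adjusted p = 0.148) against control. GSTU22 resembled GSTU25 in its controls, at 3.55 and 6.01, but its anoxia arrays stood at 5.65 and 3.60 and it was not called in any comparison. GSTU28 ran the other way, at 3.94 and 4.68 in heat, 2.29 and 2.81 in anoxia, and 3.15 and 2.43 in heat then anoxia, against 4.23 and 3.19 in controls. It was higher in heat than in anoxia by 1.76 ± 0.44 (adjusted p = 0.0236), a call lost without anoxia replicate 1 (1.51) or anoxia replicate 2 (2.02). Only control replicate 1 and heat replicate 2 exceeded log2 4, so GSTU28 passed the filter through those arrays alone. As 1 of them is on the higher side of this difference, both its call and its size are uncertain. GSTU27 stood at -0.66, 0.02 and -0.68 in heat, anoxia and heat then anoxia against control, with no call.

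Among glutathione transferases of other classes and antioxidant enzymes, TAPX rose in heat and SAPX fell in heat then anoxia, 1 of 5 antioxidant enzymes each, against 10.5% of all probe sets higher in heat and 25.4% lower in heat then anoxia. Of 22 listed genes of other classes 2 passed the filter, GSTF4 and GSTL3, and neither was called in the comparisons with control. GSTF4 stood at -0.90 in heat then anoxia (adjusted p = 0.0309, under the 2-fold limit), and was called at -1.14 when control replicate 2 was left out and at -1.18 when heat then anoxia replicate 1 was. Of 37 listed antioxidant enzymes 5 were named and passed. TAPX, the ascorbate peroxidase of the thylakoid, rose in heat by 1.22 ± 0.25 (SE; limma adjusted p = 0.00739), a call lost without control replicate 2 (adjusted p = 0.0531) or heat replicate 1 (0.0542). SAPX, the stromal ascorbate peroxidase, fell in heat then anoxia by -1.90 ± 0.48 (adjusted p = 0.0132), a call lost without either control array or without heat then anoxia replicate 2 (adjusted p of 0.0506 to 0.0652). In anoxia SAPX stood at -1.47, with arrays at 8.99 and 7.36, and was called at -2.29 without anoxia replicate 1. The glutathione reductases GR1 and GR and the monodehydroascorbate reductase ATMDAR2 stood between -0.69 and 0.29 in the comparisons with control, with no call. The median over the 5 enzymes was -0.21 in heat, 0.24 in anoxia and -0.49 in heat then anoxia.

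AT2G21640, AT1G19020 and AT1G05340, transcripts known to rise in many kinds of oxidative stress, were called higher in all treatments. Of 13 listed hallmark and signalling genes 4 were named, and these 3 passed the filter, against 10.5% of all probe sets called higher in heat, 3.95% in anoxia and 15.2% in heat then anoxia. In anoxia the calls of AT1G19020 and AT1G05340 were lost in 7 of the 8 fits without 1 array. Without the arrays with a high 25S signal all 3 were called in heat and in heat then anoxia and 1 in anoxia. The list medians were 3.48 in heat, 3.59 in anoxia and 4.85 in heat then anoxia. AT2G21640, a mitochondrial protein gene raised by oxidative stress, was at 10.47 and 10.07 in heat, 10.26 and 10.49 in anoxia, and 11.50 and 11.96 in heat then anoxia, against 6.79 and 6.79 in controls. Its controls did not differ, unlike those of STZ, and it rose by 3.48 ± 0.26, 3.59 ± 0.26 and 4.94 ± 0.26 (SE; limma adjusted p = 4.65e-05, 0.000208 and 7.95e-06). It was higher in heat then anoxia than in anoxia by 1.36 (adjusted p = 0.00606) and than in heat by 1.46 (adjusted p = 0.0151), the last lost without heat replicate 2 (adjusted p = 0.0929) or heat then anoxia replicate 2 (adjusted p = 0.103).

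AT1G19020 had the highest Pearson r with STZ over the 8 arrays. It ranked 215 by Spearman's rho and 296 by Pearson r over the 6 treated arrays. Its log2 intensity was 12.28 and 11.97 in heat, 11.16 and 12.29 in anoxia, and 12.93 and 13.01 in heat then anoxia, against 6.64 and 9.61 in controls. It rose by 4.00, 3.60 and 4.85 (limma adjusted p = 0.00788, 0.0317 and 0.00233). The anoxia call was lost without any 1 array other than control replicate 2 (adjusted p of 0.0517 to 0.163), and stood at 2.12 without control replicate 1. AT1G05340 rose by 2.03, 1.24 and 3.97, and its anoxia call was lost without any 1 array other than anoxia replicate 1 (adjusted p of 0.0529 to 0.197). The fourth gene, AT1G57630, stood at 2.00 to 2.35 on all arrays.

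The xenobiotic response list holds glucosyltransferases, efflux carriers and reductases that process reactive or foreign compounds, as GSTU25 does. Of 19 listed genes 5 passed the filter, and 1 rose in heat, 3 in anoxia and 3 in heat then anoxia, against 10.5%, 3.95% and 15.2% of all probe sets called higher. Without the arrays with a high 25S signal these counts were 1, 1 and 2. The genes called in anoxia, UGT73B4, AT2G04050 and UGT73C1, lay below log2 4 in both controls and passed the filter only through treated arrays. Their rise helped them into the count, so the counts cannot show that the list rose more often than other probe sets. The list medians were -0.04, 1.62 and 1.84. The glucosyltransferase gene UGT73B5 was at 4.12 and 4.25 in heat, 6.04 and 6.91 in anoxia, and 6.38 and 7.02 in heat then anoxia, against 3.98 and 5.73 in controls. Like GSTU25, it was not called in anoxia (1.62, limma adjusted p = 0.120) and rose in heat then anoxia (1.84, adjusted p = 0.0271), a call lost without control replicate 1 (0.97) or heat then anoxia replicate 2 (1.52). Without control replicate 1 it was called at -1.54 in heat, and without control replicate 2 at 2.50 in anoxia.

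UGT73B4 was at 2.91 and 2.74 in heat, 4.77 and 6.35 in anoxia, and 3.31 and 4.42 in heat then anoxia, against 2.54 and 3.19 in controls. It rose in anoxia by 2.69 (limma adjusted p = 0.0204), a call lost without either control array or anoxia replicate 2 (adjusted p of 0.0672 to 0.120). Its controls lay below log2 4, so the size of its rise depends on the background model. AT2G04050, of the MATE family of efflux carriers, was at 3.28 and 3.02 in heat, 5.15 and 5.0 in anoxia, and 5.57 and 6.78 in heat then anoxia, against 2.23 and 2.17 in controls. It rose by 2.88 in anoxia (adjusted p = 0.00308) and 3.97 in heat then anoxia (adjusted p = 0.000129), again from control signals below log2 4. UGT73C1, at 3.22 and 2.94 in controls and so also below that level, rose in all treatments, by 2.88 in heat, 1.50 in anoxia and 3.86 in heat then anoxia (adjusted p = 0.000348, 0.0222 and 6.17e-05). Its anoxia call was lost without either control array or anoxia replicate 1 (adjusted p of 0.0763 to 0.132). AER, an alkenal reductase gene, was not called against control. Of 26 genes listed for rapid stress responses, CML38, a calmodulin-like gene, alone passed the filter, and it is described with the genes most like GSTU25.

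**Figure D4:**
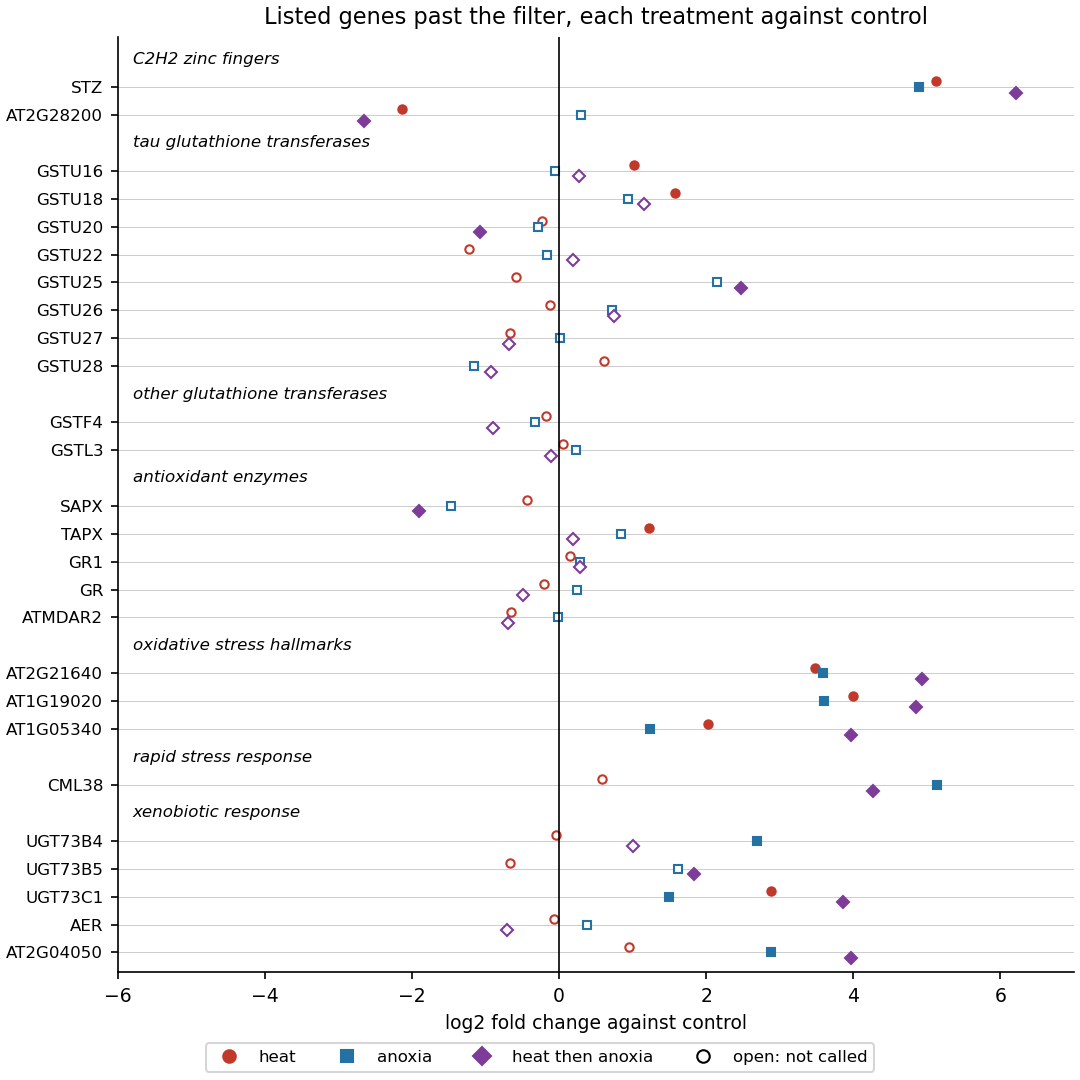
Log2 fold change against control (horizontal axis) of every listed gene that passed the filter, grouped by list, for heat (circles), anoxia (squares) and heat then anoxia (diamonds), filled where called. STZ and the 3 oxidative stress hallmark genes are filled in all treatments, while GSTU25 and UGT73B5 are filled only in heat then anoxia.

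Likeness was measured as Pearson's r of log2 intensity over the 8 arrays with each of 7822 other probe sets that match 1 gene and passed the filter, as a description in which all pairs share the same arrays. The genes most like STZ were AT1G19020 (r = 0.991), AT1G27000 (0.950), AT5G55100 (0.947), AT4G10970 (0.946), AT1G79950 (0.944) and AT3G08990 (0.937). These genes share a lowest value in control replicate 1, and over the 6 treated arrays alone r was 0.901 for AT1G19020 and between -0.100 and 0.863 for the others. None of the 6 stayed among the 6 most like STZ over the treated arrays or with Spearman's rho over 8 arrays. The genes least like STZ were AT5G23460 (-0.978), the root hair expansin EXPA7 (-0.976) and AT3G52480 (-0.973). Over the 6 treated arrays their r was -0.58, 0.149 and -0.625. AT5G23460 and EXPA7 exceeded log2 4 only in the controls and passed the filter through them alone, so their r reflects the contrast of controls with treated arrays. EXPA7 stood at 2.17 and 2.14 in heat, 1.89 and 1.96 in anoxia, and 2.07 and 2.00 in heat then anoxia, against 6.20 and 4.09 in controls, so that it too was furthest from the treated arrays in control replicate 1.

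The genes most like GSTU25 were AT5G25930 (r = 0.966), UGT73B5 (0.966), AT1G03590 (0.961), AT4G24110 (0.957), AR781 (0.954) and CML38 (0.949). Over the 6 treated arrays their r with GSTU25 was 0.939 to 0.974. These arrays were among the 8 used to pick the genes, so a high r was to be expected. By r over the treated arrays they ranked between 33 and 124 among the 7822 probe sets. With Spearman's rho over 8 arrays 2 of the 6, UGT73B5 and AR781, stayed among the 6 most like, ties included, and over the treated arrays none did. CML38 was at 7.84 and 7.09 in heat, 11.62 and 12.44 in anoxia, and 10.71 and 11.60 in heat then anoxia, against 4.89 and 8.89 in controls. It rose in anoxia by 5.14 (limma adjusted p = 0.0229), lost without either anoxia array (adjusted p = 0.0634 and 0.118), and in heat then anoxia by 4.27 (adjusted p = 0.0139), lost without heat then anoxia replicate 2 (adjusted p = 0.0717). Neither call held without the arrays with a high 25S signal. In heat it stood at 0.58, and at 2.57 and called without control replicate 2. All 6 genes were higher in control replicate 2 than in replicate 1, by 0.52 for AT1G03590 (7.68 against 7.16) and up to 4.00 for CML38. Least like GSTU25 were AT5G40510 (-0.958), SP1L4 (-0.950) and GSTU28 (-0.945). STZ and GSTU25 themselves correlated at 0.588 over 8 arrays and 0.449 over the 6 treated ones, and they parted in heat, where STZ rose and GSTU25 was not called.

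**Figure D5:**
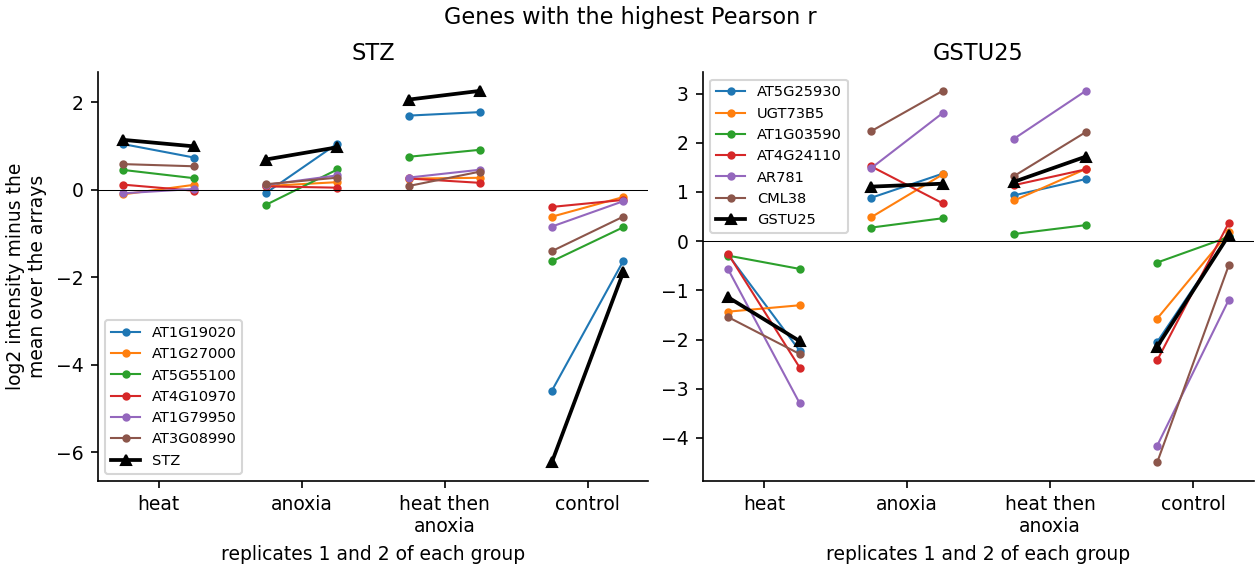
Log2 intensity minus each gene's mean over the 8 arrays (vertical axis) for STZ and GSTU25 (black) and the 6 genes with the highest Pearson r with each (colours), with replicates 1 and 2 of a group joined by a line. The STZ panel is led by the low value of control replicate 1, while in the GSTU25 panel the arrays of both groups without oxygen lie above those of heat.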

How the data were processed

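Total RNA of whole seedlings was hybridised to 8 ATH1 arrays. The authors deposited one linear intensity per probe set and array. Per the labels these were made with GCRMA, whose background model uses the probe's sequence; no version of it was given in the sources used here. Log2 values were analysed without renormalization. Array controls were set aside (64 of 22810 probe sets). Names were taken from GEO's platform annotation and RefSeq (TAIR10.1): 13513 probe sets had 1 gene, 503 had several and 8730 had none.

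Means of the 4 groups were fitted to all 14535 probe sets past the filter (limma 3.58.1, R 4.3.3, 4 residual degrees of freedom), with p-values adjusted within each of the 7 comparisons. Plots used matplotlib 3.10.9 (Python 3.11.15). The members and gene lists were chosen with earlier results of these data known. Named genes were STZ, GSTU25, measured zinc finger and tau glutathione transferase genes, up to 6 genes a list by change in heat then anoxia against control, and the 6 most and 3 least like each member. Each listed gene had 1 probe set. The fit was tested on simulated data. Alternatives were no filter, a filter at log2 6, log2(intensity + 16), quantile normalization, median centring, a robust prior with an intensity trend, fits of only the groups compared, a replicate block, no fold limit and each array left out. A floor at log2 4, and a fit that omits both arrays of high 25S signal, were chosen after seeing the data. Where a group kept 1 array, its spread was taken from the other groups. Calls held or gained without a control array are therefore not measured against the spread of the controls.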

Additional observations from a re-analysis of the deposited data

Results flagged for a closer look

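The interaction of heat and anoxia was called for TAPX and AT2G21640 among the listed genes. For both, heat then anoxia minus anoxia was lower than heat minus control. Over all probe sets 2.45% were called with a negative interaction and 3.73% with a positive one. No group was heated and then kept 6 hours in air, so lack of oxygen and time since heat cannot be told apart. For TAPX the interaction was -1.87 ± 0.35 (SE; limma adjusted p = 0.0240). Its arrays were at 8.56 and 8.20 in heat, 7.94 and 8.06 in anoxia, and 7.37 and 7.33 in heat then anoxia, against 7.38 and 6.94 in controls. That call was lost in 6 of the 8 fits without 1 array (adjusted p of 0.0574 to 0.0887). For AT2G21640 it was -2.12 ± 0.37 (adjusted p = 0.0182), lost in 4 of those 8 fits (adjusted p of 0.0607 to 0.0687), while the gene was highest in heat then anoxia.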

How the results depend on the processing

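Of 132 alternative values for STZ, 116 kept their direction and their side of the threshold, 9 lost a call and 7 gained one. For GSTU25, 112 of 132 kept both, 15 lost a call, 3 gained one and 2 turned in sign. Many of these alternatives repeat the main log2 fold change by construction, and those with no fold limit repeat its adjusted p too. The counts are therefore no measure of how robust the results are. With no filter on dim probe sets, more probe sets enter the adjustment, and STZ in anoxia against control (4.89, adjusted p = 0.107) and GSTU25 in heat then anoxia against control (2.47), heat then anoxia against heat (3.05) and heat against anoxia (-2.72) were not called. Without the 2 arrays with a high 25S signal, which leaves fewer arrays, the same 4 results stood at 4.75, 2.21, 2.79 and -2.69 and were not called. With only the 2 groups compared, STZ in anoxia was not called (4.89), while its excess in heat then anoxia over anoxia (1.33) and over heat (1.09) was. Median centring called GSTU25 in anoxia (2.29). With single arrays left out, STZ ran from 2.95 to 7.29 in heat, 2.72 to 7.06 in anoxia and 4.04 to 8.38 in heat then anoxia against control, from 1.18 to 1.47 against anoxia, 0.99 to 1.20 against heat, and -5.96 to -1.62 in the interaction. GSTU25 ran from -1.71 to 0.55 in heat, 1.02 to 3.28 in anoxia and 1.34 to 3.60 in heat then anoxia against control, from 2.60 to 3.49 in heat then anoxia against heat, -3.17 to -2.28 in heat against anoxia, and -0.23 to 2.03 in the interaction, and the reversals at 0.55 and -0.23 came without control replicate 2.

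Raising STZ values to a floor of log2 4 gave 4.59 in heat, 4.36 in anoxia and 5.68 in heat then anoxia, and log2(intensity + 16) gave 4.26, 4.03 and 5.34, all called. Replicate differences correlated at 0.022 to 0.298 between groups, and the replicate numbers of the labels were not treated as pairs in the main fit. A replicate block changed no call of STZ (5.12, adjusted p = 0.00960 in heat) or GSTU25 (2.47, adjusted p = 0.0192 in heat then anoxia). Counts of called probe sets moved by over 1.5 times in 41 of 250 cases. Without the high 25S arrays they included 71 against 542 positive and 126 against 356 negative interactions, 182 against 746 higher and 222 against 678 lower in heat then anoxia against heat, 270 against 574 higher and 420 against 860 lower in anoxia against control, 1620 against 2493 lower in heat then anoxia against anoxia, and 974 against 1739 lower in heat against anoxia; with only the 2 groups compared, 524 against 860 lower in anoxia; with no filter, 423 against 746 higher and 338 against 678 lower in heat then anoxia against heat; with median centring, 2347 against 3686 lower in heat then anoxia; and with the block, 592 against 356 negative interactions. With 2 arrays a group, the spread between controls limits every value that rests on them.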

Other observations

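Genes of thiol redox proteins were looked up after their values were seen, so their levels are given without a test. GRX480, a glutaredoxin known to bind TGA transcription factors, stood at 3.02 and 3.38 in heat, 9.19 and 10.28 in anoxia, and 9.27 and 10.11 in heat then anoxia, against 3.34 and 4.71 in controls. As with GSTU25, the 4 arrays of seedlings without oxygen lay above the other 4, and control replicate 2 lay above control replicate 1. The share of all probe sets with this order was not counted. The glutaredoxin genes GRXC1 and GRXC2, the thioredoxin gene TRXF2 and the peroxiredoxin gene PRXIIF spanned 0.63 to 1.1 over the 6 treated arrays, where GRX480 spanned 7.26.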
